A study of Homo sapiens with 9 samples.

Results

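Integrins and the proteins that tie them to the cytoskeleton were followed as 36 genes of the 60708 in the count files. The genes were taken by their symbols from a fixed list of 18 integrin α subunits, 8 β subunits and 10 focal adhesion proteins, and the rule used no measured value, although the list was drawn up with earlier results of these data known. The series held 9 RNA-seq libraries labelled as MDA-MB-231, an established line of triple-negative breast cancer cells with mesenchymal features. Of these, 3 libraries came from wild-type cells (WT), 3 from the SNAI1 knockout clone CS16 and 3 from the SNAI1 knockout clone CS19. The knockout cells had been transfected with Cas9, repair plasmids and a pool of 3 plasmids that each encoded a guide RNA against SNAI1, and were selected with puromycin. Each knockout group was therefore the progeny of 1 cell, and no cloning step is given for the WT cells. All cells were grown in DMEM with serum and none were treated. The labels call the libraries of a group replicates without saying whether they were separate cultures, so the p-values measure the spread between these libraries, which may be technical. The libraries held 19527195 to 28627777 counted read pairs.

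Integrins are pairs of one α and one β subunit that span the plasma membrane, bind laminins, collagens, fibronectin or counter-receptors outside the cell and gather talin, kindlin and other adaptors inside it. Talins and kindlins bind the β tail and switch the receptor on, vinculin strengthens the link from talin to actin, paxillin is a scaffold for signalling proteins, and integrin-linked kinase forms a complex with the parvins. In breast epithelium the laminin receptors hold basal cells to the basement membrane, and in carcinoma cells the same families serve spreading and migration. SNAI1 is a zinc finger repressor that binds E-boxes and drives epithelial-mesenchymal transition.

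The count of the targeted gene did not separate the labels in the direction of a loss. These counts sum reads over the whole gene, so a lesion in part of it or a loss of protein cannot be read from them. SNAI1 counts were 16, 38 and 21 in WT, 26, 40 and 49 in CS16 and 57, 94 and 94 in CS19, and the log2 fold change of SNAI1-KO against WT was 0.89 (SE 0.42, adjusted p = 0.0838). For CS19 alone it was 1.32 (SE 0.42, adjusted p = 0.031). Groups are therefore named by their labels, and "clone libraries" means those labelled CS16 or CS19. All 10 markers of MDA-MB-231 were above 3 counts in every WT library, with a summed level of 9571.8 to 12834 counts scaled to library size (CPM, TMM-normalized counts per 1000000 counted pairs). In the clone libraries the same sum was 536 to 593 CPM. Of the 10 markers 7 were above 3 counts in every CS16 library and 8 in every CS19 library. CD44 and S100A6 had a count of 0 in all 3 CS16 libraries, and no marker was at 0 throughout CS19. CDKN2A, CDKN2B and MTAP were looked at because they are deleted in MDA-MB-231. They were at 0 in every WT library and summed to 164 to 182 CPM in the clones. The sum over 10 luminal markers was 1457 to 2135 CPM in WT and 70.8 to 119 CPM in the clones. That over 8 markers of embryonic kidney was 64.4 to 94.5 CPM in WT and 149.8 to 175 CPM in the clones. Of these 8 markers 5 were above 3 counts in every WT library, 6 in every CS16 library and 7 in every CS19 library. The sum over 7 fibroblast markers was 58.4 to 127.3 CPM in WT, 63.8 to 67.9 in CS16 and 12.7 to 15.6 in CS19. Whether the clone libraries are of the labelled line was not tested beyond these values. The part of these differences in the values below was not tested. WT-2 also stood apart, with a correlation of 0.948 to 0.952 with the other WT libraries across genes, against 0.995 between WT-1 and WT-3 and at least 0.995 within each clone.

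Of the 36 members, 31 passed the filter on low counts in the comparison of the 6 SNAI1-KO libraries with the 3 WT libraries. These 6 libraries came from only 2 clones and were pooled with no term for clone. The p-values and SDs of SNAI1-KO therefore treat libraries, not clones, as the units. A gene was called when its log2 fold change was 2 or more in size with an adjusted p under 0.05 (edgeR quasi-likelihood test, Benjamini-Hochberg adjustment over all genes tested). By this rule 22 members were called, 7 higher and 15 lower in SNAI1-KO. Over all 19631 genes tested 26.9% were called, 12.6% higher and 14.3% lower. An adjusted p under 0.05 was reached by 28 members, 8 higher and 20 lower, against 63.7% of all genes. The median log2 fold change of the 31 members was -1.67, and that of all genes tested was -0.00. The CPM ranges of WT and SNAI1-KO did not overlap for any of the 22 called members. A call at these cut-offs already makes such a gap likely. The share of all genes without overlap was not counted, so the gap adds nothing to the calls. Some of the 22 had to differ once they passed the filter, since 1 side was near 0. Among these were ITGA4, ITGA8, ITGAD and PARVB in WT, ITGB2 in both clones and FERMT1 in CS19. Without WT-2, 20 members were called, 7 higher and 13 lower, against 25.9% of all genes. Because RNA was taken from bulk cultures, fewer cells of a type and less RNA per cell cannot be told apart.

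**Figure D1:**
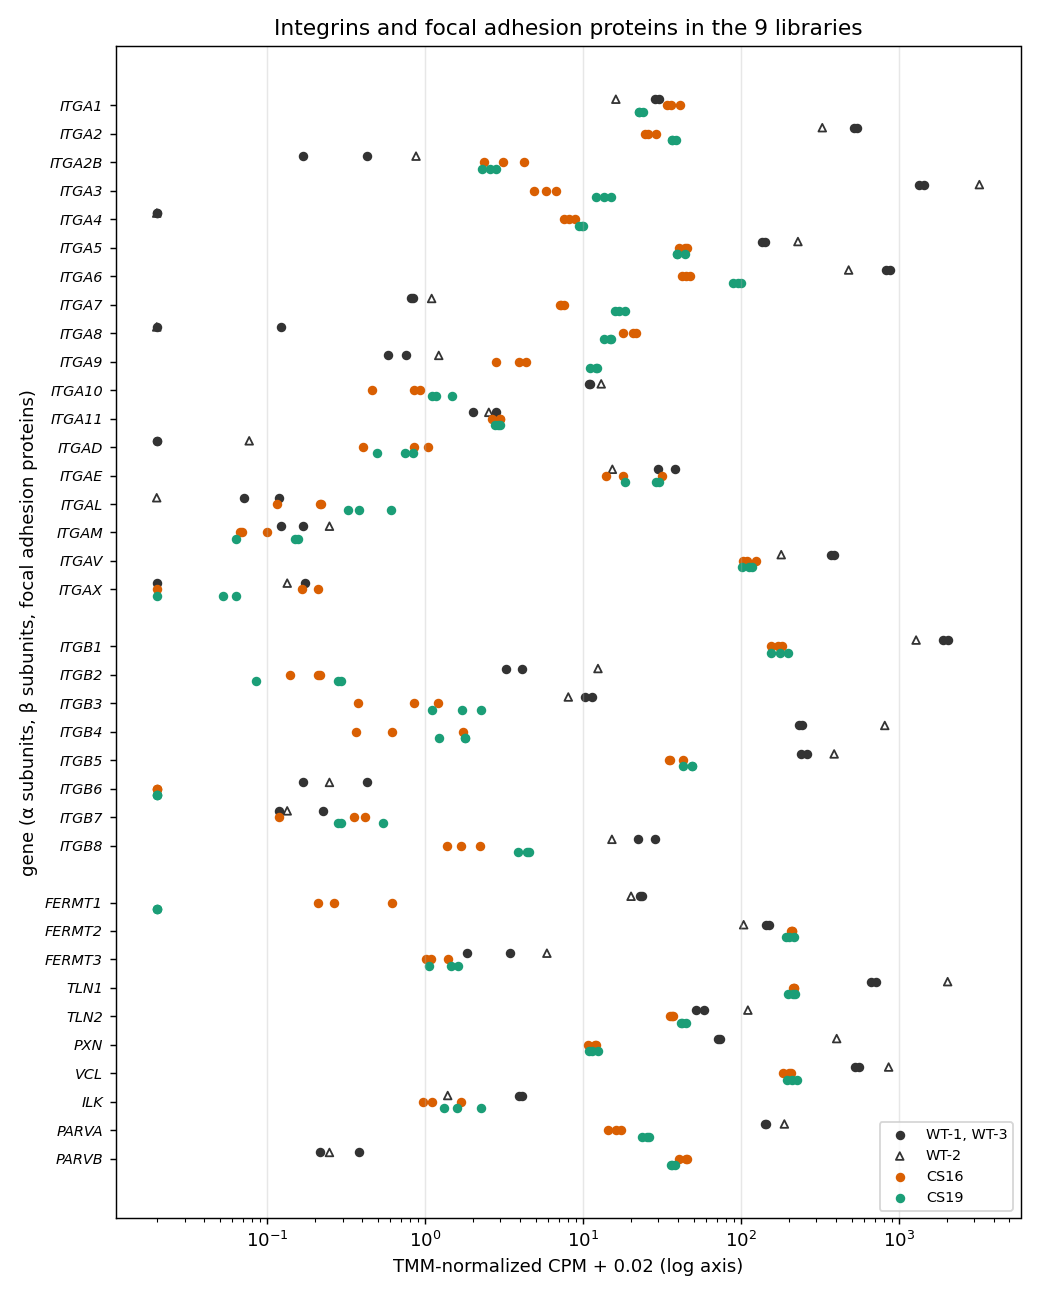
Level of each of the 36 members in each library, as TMM-normalized CPM plus 0.02 on a log axis, with WT-1 and WT-3 as filled black circles, WT-2 as open triangles, CS16 in orange and CS19 in green. ITGA3, ITGB4 and FERMT1 lie far to the right in WT, and ITGA4, ITGA8 and PARVB far to the right in the clones.

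The stretch before the start of transcription was read for the 25 members that had an entry in the RefSeq promoter table (GRCh38.p14), because SNAI1 is known to bind the E-box CAGGTG. The motif was searched as CAGGTG and its reverse complement CACCTG in the 250 bases before each of the 33 annotated starts of these members. It was present before 5 starts (15.2%), those of ITGA6, ITGB5, PXN, ITGA11 and ITGB6, against 17.5% of the 35116 windows in the table. Of these 5 members 3 were called lower in SNAI1-KO, ITGA11 was not called and ITGB6 was not tested. Of the 25 members with a window 9 were called lower and 4 higher, against 14.3% and 12.6% of all genes tested, and no association of the motif with a direction was tested. The E-box matches of 3 of them are given in capitals within the 250 bases, written 5′ to 3′ on the strand of the gene, with the window of PARVB, the focal adhesion gene with the largest rise, as one that held no match. A match is a description of letters and not a binding site. Starts are those given by RefSeq, and in the annotation behind the counts PARVB begins upstream of the window shown, at chr22:43999211. Members without an entry were ITGA3, ITGA7, ITGA9, ITGAD, ITGAL, ITGAX, ITGB2, ITGB3, ITGB4, FERMT1 and PARVA.
ITGA6, called lower, chr2:172427086-172427335, plus strand, the 1 of its 2 starts with matches, 136 and 46 bases before it: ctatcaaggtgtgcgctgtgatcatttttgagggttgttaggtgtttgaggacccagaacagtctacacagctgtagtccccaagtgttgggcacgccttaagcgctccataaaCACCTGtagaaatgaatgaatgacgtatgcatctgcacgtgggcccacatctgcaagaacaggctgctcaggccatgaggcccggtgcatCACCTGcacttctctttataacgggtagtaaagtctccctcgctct
ITGB5, called lower, chr3:124887366-124887615, minus strand, the 1 of its 3 starts with a match, 215 bases before it: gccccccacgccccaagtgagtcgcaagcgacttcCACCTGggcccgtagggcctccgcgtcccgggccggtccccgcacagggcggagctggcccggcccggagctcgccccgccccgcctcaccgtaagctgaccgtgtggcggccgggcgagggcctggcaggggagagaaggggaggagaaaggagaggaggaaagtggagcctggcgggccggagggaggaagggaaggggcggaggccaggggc
ITGA11, not called, chr15:68432164-68432413, minus strand, match starting 130 bases before the start: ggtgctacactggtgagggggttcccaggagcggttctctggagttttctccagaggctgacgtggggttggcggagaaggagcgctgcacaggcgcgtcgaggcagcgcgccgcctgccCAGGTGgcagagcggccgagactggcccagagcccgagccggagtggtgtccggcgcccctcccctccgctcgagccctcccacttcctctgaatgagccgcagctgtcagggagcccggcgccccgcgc
PARVB, called higher, chr22:44024052-44024301, plus strand, the first of its starts, no match: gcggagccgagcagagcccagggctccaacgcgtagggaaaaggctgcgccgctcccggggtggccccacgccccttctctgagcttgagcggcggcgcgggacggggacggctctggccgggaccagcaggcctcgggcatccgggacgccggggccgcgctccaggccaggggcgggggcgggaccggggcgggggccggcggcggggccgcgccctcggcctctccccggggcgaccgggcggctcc

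ITGA3 and ITGA6, laminin-binding subunits that carried most of the α mRNA of WT, fell in the clones, and their relative ITGA7 rose (coordinates of genes are on GRCh38). ITGA3 (ENSG00000005884, chr17:50055968-50090481, plus strand), which pairs with ITGB1, stood at 1340.4, 3224 and 1439 CPM in WT-1, WT-2 and WT-3, at 6.72, 4.87 and 5.81 CPM in CS16 and at 12, 15 and 13.5 CPM in CS19. Every clone library was below every WT library, and CS16 was below CS19. The log2 fold change of SNAI1-KO against WT was -7.69 (SE 0.45, adjusted p = 4.59e-08), a ratio of mean CPM of 207. ITGA6 (ENSG00000091409, chr2:172427354-172506459, plus strand), which pairs with ITGB1 or with ITGB4 and whose E-box matches are shown above, stood at 825, 480 and 871 CPM in WT, 47.3, 42 and 44.8 in CS16 and 88.7, 100 and 96.1 in CS19. All clone libraries again lay below WT and those of CS16 below those of CS19, and the log2 fold change was -3.38 (SE 0.32, adjusted p = 2.93e-06). ITGA7, the laminin receptor subunit best known from muscle, moved the other way. Its level was 0.789, 1.08 and 0.821 CPM in WT, 7.21, 7.59 and 7.12 in CS16 and 18.4, 15.9 and 16.9 in CS19. The groups did not overlap, and the log2 fold change was 3.76 (SE 0.45, adjusted p = 2.1e-05).

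The 4 collagen-binding α subunits, which all pair with ITGB1, split into 2 that were called lower and 2 that were not called. ITGA2 stood at 543, 327 and 521 CPM in WT, 24.8, 29 and 25.7 in CS16 and 36.4, 38.9 and 36.7 in CS19, with no overlap and a log2 fold change of -3.86 (SE 0.20, adjusted p = 2.17e-08). ITGA10, a chondrocyte receptor subunit, stood at 11.1, 13 and 10.8 CPM in WT, 0.441, 0.907 and 0.836 in CS16 and 1.45, 1.08 and 1.15 in CS19, and its log2 fold change was -3.56 (SE 0.28, adjusted p = 5.57e-07). ITGA1 gave 30.2, 16.1 and 28.7 CPM in WT against 34.1 to 41 in CS16 and 22.6 to 23.8 in CS19. Here the WT range covered CS19, and the log2 fold change was 0.26 (SE 0.26, adjusted p = 0.402). ITGA11 gave 2 to 2.81 CPM in WT and 2.65 to 2.98 CPM in the clones (log2 fold change 0.23, SE 0.20, adjusted p = 0.344). Of the exon length of ITGA1, 13.2% is shared with other annotated genes, 8.1% with genes on the opposite strand, and pairs that fell there on exons of several genes were not counted.

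Of the 4 α subunits that bind the RGD motif of fibronectin, vitronectin and related ligands, ITGA8 and the platelet subunit ITGA2B were called higher, ITGA5 was called lower at the cut-off and ITGAV fell by less than it. ITGA5, the fibronectin receptor subunit, stood at 137, 229 and 141 CPM in WT, 45.3, 40.4 and 44.4 in CS16 and 39, 44.4 and 39.5 in CS19. The groups did not overlap and the log2 fold change was -2.002 (SE 0.17, adjusted p = 9.02e-07), just past the cut-off. Without WT-2 it was -1.72 (adjusted p = 1.26e-08) and ITGA5 was no longer called. ITGAV, which pairs with several β subunits, had counts of 7465, 3147 and 7510 in WT, 2210, 2590 and 2597 in CS16 and 2474, 2338 and 3604 in CS19, the last in the deepest library. Its log2 fold change of -1.49 (SE 0.20, adjusted p = 5.98e-05) was under the cut-off, and CPM averaged 311 ± 114.3 in WT, 111.8 ± 10.6 in CS16 and 110.6 ± 8.45 in CS19 (SD, n = 3). ITGA8, a subunit known from kidney development and smooth muscle, had counts of 0, 0 and 2 in WT, 420, 377 and 541 in CS16 and 297, 345 and 448 in CS19. The ratio of SNAI1-KO to WT was 489, with an exact 95% counting interval of 135 to 4043 (adjusted p = 5.79e-08).

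ITGA4 and ITGA9, related subunits that bind VCAM1, fibronectin and other ligands, were higher in the clones. ITGA4 (ENSG00000115232, chr2:181457202-181538940, plus strand) had a count of 0 in all 3 WT libraries, against 153, 170 and 224 in CS16 and 218, 217 and 302 in CS19. Against a floor of 3 counts per library it was at least 56.8-fold higher in SNAI1-KO (adjusted p = 5.48e-08). Of its exon length 26.4% is shared with CERKL on the opposite strand. ITGA9 stood at 0.74, 1.2 and 0.565 CPM in WT, 4.36, 2.77 and 3.9 in CS16 and 12.2, 12 and 11.1 in CS19, so that the 3 groups did not overlap. Its log2 fold change was 3.21 (SE 0.60, adjusted p = 0.000624), and 9.2% of its exon length is shared with ITGA9-AS1.

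The α subunits of platelets and leukocytes were low in all libraries, with the exception of ITGAE. ITGA2B, the platelet subunit that pairs with ITGB3, had counts of 3, 15 and 8 in WT, 48, 65 and 106 in CS16 and 50, 59 and 85 in CS19, and was called higher (log2 fold change 2.62, SE 0.45, adjusted p = 0.00031). Without WT-2 it was 3.35 (adjusted p = 4.32e-05). ITGAD, a leukocyte partner of ITGB2, had counts of 0, 1 and 0 in WT, 17, 8 and 26 in CS16 and 16, 11 and 25 in CS19. The ratio of SNAI1-KO to WT was 41.5 with an exact 95% counting interval of 7.29 to 1656 (adjusted p = 0.00014). ITGAL, ITGAM and ITGAX, the other leukocyte partners of ITGB2, had at most 13, 4 and 4 counts in any library and were not tested. ITGAE, the E-cadherin-binding subunit of intraepithelial lymphocytes, gave 15.3 to 38 CPM in WT and 13.9 to 31.5 CPM in the clones (log2 fold change -0.25, SE 0.32, adjusted p = 0.519). Per length it ranked above ITGA1 in every group. Summed over 8 leukocyte markers the level was 5.77 to 7.59 CPM in WT and 3.1 to 3.82 CPM in the clones, with 3 of 8 above 3 counts in every WT library and 2 of 8 in every library of each clone. Of 6 platelet markers, PF4 and PPBP were at 0 in all 9 libraries, and the sum was 1.59 to 7.81 CPM in WT and 2.45 to 3.27 CPM in the clones.

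Every β subunit that passed the filter was called lower, 6 of 6, against 14.3% of all genes tested. ITGB2, near 0 in the clones, passed the filter through its WT counts. ITGB1 (ENSG00000150093, chr10:32887273-33005792, minus strand), the partner of most α subunits, stood at 1899, 1282 and 2052 CPM in WT, 182, 155 and 170 in CS16 and 154, 197 and 175 in CS19. Clone libraries were all below WT and the clones overlapped each other, with a log2 fold change of -3.34 (SE 0.17, adjusted p = 1.28e-08). ITGB4 (ENSG00000132470, chr17:75721328-75757818, plus strand), which pairs with ITGA6 alone and anchors hemidesmosomes to keratin filaments, stood at 243, 812 and 231 CPM in WT, 0.343, 1.72 and 0.597 in CS16 and 1.77, 1.21 and 1.77 in CS19. WT-2 was above the other WT libraries, and the log2 fold change was -8.42 (SE 0.54, adjusted p = 1.1e-07) with WT-2 and -7.57 (adjusted p = 2.33e-09) without it.

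The β subunits that pair with ITGAV followed. ITGB5 stood at 241, 388 and 260 CPM in WT, 35.4, 42.7 and 34.9 in CS16 and 48.8, 48.9 and 42.7 in CS19 (log2 fold change -2.81, SE 0.18, adjusted p = 9.43e-08). ITGB3, the vitronectin and fibrinogen receptor subunit, stood at 11.3, 8.04 and 10.2 CPM in WT, 0.833, 1.19 and 0.358 in CS16 and 2.23, 1.08 and 1.7 in CS19 (log2 fold change -2.99, SE 0.39, adjusted p = 4.13e-05). A longer annotated gene on the same strand shares 35.7% of the exon length of ITGB3, so its counts are uncertain. ITGB8, known for releasing active TGFβ from its latent form, stood at 28.4, 15.2 and 22.4 CPM in WT, 2.21, 1.67 and 1.35 in CS16 and 3.86, 4.55 and 4.42 in CS19. The 3 groups did not overlap, and the log2 fold change was -2.87 (SE 0.37, adjusted p = 3.66e-05). ITGB6, an epithelial TGFβ-activating subunit, had counts of 3, 4 and 8 in WT and 0 in all 6 clone libraries, and was below the filter.

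ITGB2, the leukocyte β subunit, was the remaining β subunit called, and ITGB7, its relative in lymphocytes, was not tested. ITGB2 counts were 66, 217 and 80 in WT, 4, 4 and 3 in CS16 and 6, 6 and 2 in CS19. The groups did not overlap, WT-2 was the highest, and the log2 fold change was -5.15 (SE 0.49, adjusted p = 2.63e-06), or -4.33 (adjusted p = 6.7e-07) without WT-2. ITGB7 had 2 to 4 counts in WT and 2 to 12 in the clones, and 42.3% of its exon length is shared with ZNF740.

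**Figure D2:**
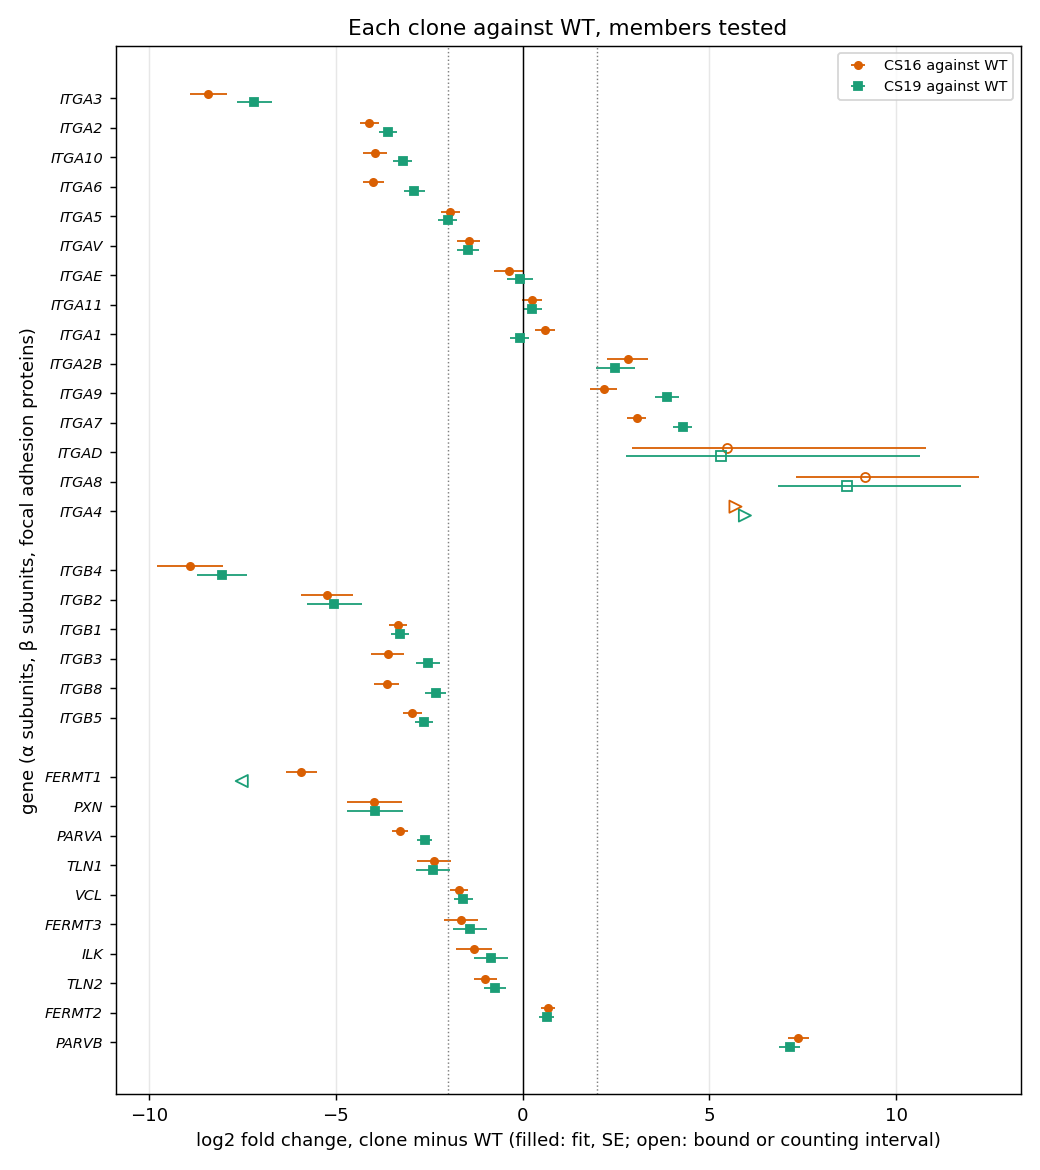
Log2 fold change of each clone against WT for the 31 members tested in SNAI1-KO against WT. Filled points are fitted values with their SE, open triangles for ITGA4 and for FERMT1 in CS19 are lower bounds on the size of the change from a floor of 3 counts, open circles and squares for ITGA8 and ITGAD are ratios with 95% counting intervals, and dotted lines mark the cut-off of 2. The 6 β subunits lie left of the cut-off in both clones, and the α subunits lie on either side.

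The make-up of the subunit mRNA was compared per length, as CPM divided by the exon length in units of 1000 bases (RPKM). Summed over the 18 α subunits the level was 440 ± 53.4 RPKM in WT, 41.6 ± 1.7 in CS16 and 52.6 ± 1.24 in CS19 (SD, n = 3 each). Summed over the 8 β subunits it was 233 ± 34.4 RPKM in WT, 17.8 ± 0.46 in CS16 and 20.1 ± 1.52 in CS19. Both sums were lower in every clone library than in any WT library.

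In WT the order of the α subunits by RPKM was ITGA3 (204 ± 108, SD, n = 3), ITGA6 (109 ± 32), ITGA2 (58.7 ± 15.1), ITGAV (37.8 ± 13.9) and ITGA5 (22.9 ± 7.06). The ranges of ITGA2 and ITGAV, and of ITGAV and ITGA5, overlapped, and the first 3 did not. ITGA3 made up 44.9% ± 17.9 of the α sum and ITGA6 25.4% ± 9.61. The share of ITGA3 was 34.1%, 65.7% and 35.1% in WT-1, WT-2 and WT-3. Without WT-2 the mean of ITGA3 was 141.8 RPKM (34.6% of the sum) and that of ITGA6 126.9 RPKM (31%), so the lead of ITGA3 was then small. In CS16 the order began with ITGAV (13.6 ± 1.29 RPKM, 32.7% of the sum), ITGA6 (6.69 ± 0.394) and ITGA5 (5.87 ± 0.35), which did not overlap. In CS19 it began with ITGA6 (14.2 ± 0.87 RPKM, 27.1% of the sum) and ITGAV (13.5 ± 1.03, 25.6%), which overlapped, and went on with ITGA5 (5.55 ± 0.401). ITGA3 was left with 0.591 ± 0.0943 RPKM in CS16 and 1.38 ± 0.151 RPKM in CS19, where it made up 2.63% of the sum. Thus the first place passed from a laminin receptor subunit in WT to an RGD receptor subunit in CS16, and was shared by one of each kind in CS19.

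Among the β subunits ITGB1 came first in each group, with 120 ± 28 RPKM in WT, 11.6 ± 0.907 in CS16 and 12 ± 1.48 in CS19, or 53.2%, 65% and 59.8% of the β sum. In WT it was followed by ITGB4 (63.4 ± 49.1 RPKM) and ITGB5 (45.4 ± 12.3), and each overlapped the next. This order rested on WT-2, where ITGB4 stood at 120.1 RPKM and above ITGB1, against 35.9 in WT-1 and 34.2 in WT-3. Without WT-2 the mean of ITGB4 was 35.1 RPKM, and ITGB5 (38.4 RPKM) came second. ITGB5 was second in both clones, at 5.78 ± 0.674 RPKM in CS16 and 7.18 ± 0.548 RPKM in CS19. The third place was held at a much lower level by ITGB4 in CS16 (0.131 ± 0.108 RPKM) and by ITGB8 in CS19 (0.282 ± 0.0242 RPKM), and neither was apart from the next subunit. ITGB4 made up 17.3%, 44.2% and 15.6% of the β sum in WT-1, WT-2 and WT-3, a mean of 25.7%, or 16.5% without WT-2. It made up 0.736% in CS16 and 1.18% in CS19.

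**Figure D3:**
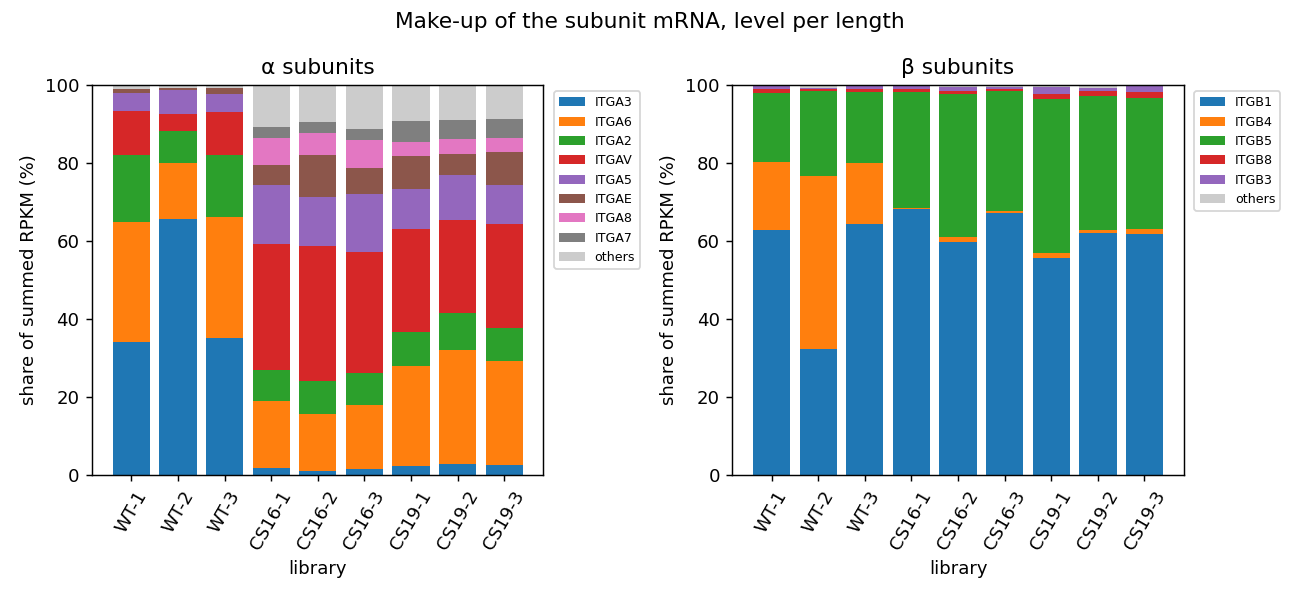
Share of each subunit in the summed RPKM of all α subunits (left) or all β subunits (right), as stacked bars for each of the 9 libraries. ITGA3 and ITGB4 take up large parts of the WT bars, most of all in WT-2, and almost none of the clone bars, where ITGAV and ITGA6 lead the α subunits and ITGB1 and ITGB5 the β subunits.

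Of the 10 focal adhesion proteins all were tested, and 1 was called higher and 4 lower, against 12.6% and 14.3% of all genes. The 5 others had an adjusted p under 0.05 with a smaller change, and 63.7% of all genes had an adjusted p under 0.05. The parvins, which link integrin-linked kinase to actin, moved in opposite directions. PARVA (ENSG00000197702, chr11:12377563-12535356, plus strand) stood at 144, 188 and 142 CPM in WT, 17.4, 16.2 and 14.4 in CS16 and 23.6, 26.3 and 25.2 in CS19 (log2 fold change -2.95, SE 0.21, adjusted p = 2.18e-07). PARVB (ENSG00000188677, chr22:43999211-44172939, plus strand) stood at 0.197, 0.228 and 0.359 CPM in WT, 44.7, 40.4 and 45.5 in CS16 and 36.3, 38.4 and 36.1 in CS19. For PARVB the groups were more than 100-fold apart, with a log2 fold change of 7.23 (SE 0.26, adjusted p = 1.25e-09) and a ratio of mean CPM of 154. Per length PARVA went from 12.7 ± 2.08 RPKM in WT to 1.28 ± 0.117 in CS16 and 2.01 ± 0.109 in CS19, and PARVB from 0.0355 ± 0.0117 RPKM to 5.91 ± 0.37 and 5.01 ± 0.172. ILK, the kinase-like partner of both, gave 3.9, 1.37 and 4.11 CPM in WT and 0.955 to 2.23 CPM in the clones. Its groups overlapped through WT-2 (log2 fold change -1.09, SE 0.36, adjusted p = 0.0203). The adjusted p was 0.0894 without WT-1, 0.104 without WT-3 and 0.000883 without WT-2, and 78.5% of its exon length is shared with genes on the opposite strand, among them TAF10, so that its counts are uncertain.

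The kindlins differed by member. FERMT1 (ENSG00000101311, chr20:6074845-6123030, minus strand), the epithelial kindlin, had counts of 463, 353 and 458 in WT, 5, 4 and 15 in CS16 and 0 in all 3 CS19 libraries. It was called lower (log2 fold change -6.98, SE 0.67, adjusted p = 3.23e-06), and in CS19 alone it was at least 182-fold lower than in WT against a floor of 3 counts per library. FERMT2, the kindlin of most tissues, went slightly the other way, from 144, 104 and 151 CPM in WT to 208, 209 and 211 in CS16 and 192, 215 and 201 in CS19. The groups did not overlap, and the log2 fold change of 0.63 (SE 0.14, adjusted p = 0.00244) was under the cut-off. FERMT3, the kindlin of blood cells, stood at 1.82 to 5.88 CPM in WT and 1 to 1.59 CPM in the clones (log2 fold change -1.56, SE 0.33, adjusted p = 0.00145).

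TLN1, PXN and VCL, which couple integrins to actin and signalling, were lower in the clones, and their WT values were set apart by WT-2. TLN1 stood at 719, 2030.3 and 660 CPM in WT, 217, 213 and 217 in CS16 and 220, 214 and 197 in CS19. The clones lay in a narrow range below WT, with a log2 fold change of -2.42 (SE 0.29, adjusted p = 2.05e-05), which was -1.70 (adjusted p = 1.14e-08) without WT-2, so that TLN1 was then not called. PXN stood at 73.7, 403 and 71 CPM in WT, 10.7, 11.9 and 12.1 in CS16 and 10.9, 12.4 and 11.4 in CS19. Its log2 fold change was -3.98 (SE 0.46, adjusted p = 1.34e-05) with WT-2 and -2.65 (adjusted p = 7.17e-10) without it, and it was called either way. Of its exon length 26.7% is shared with genes on the opposite strand, PXN-AS1 among them. VCL stood at 526 to 859 CPM in WT and 183 to 226 CPM in the clones (log2 fold change -1.67, SE 0.16, adjusted p = 3.64e-06), and TLN2, the second talin, at 51.8 to 110 and 35.6 to 44.7 CPM (log2 fold change -0.89, SE 0.22, adjusted p = 0.00347).

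By level per length the leading focal adhesion genes of WT were TLN1 (115.1 ± 78.4 RPKM, SD, n = 3) and VCL (64.7 ± 18.5), which overlapped. In the clones FERMT2 came first, at 24.7 ± 0.151 RPKM in CS16 and 23.9 ± 1.39 in CS19, before TLN1 (21.8 ± 0.271 and 21.3 ± 1.18) and VCL (19.7 ± 1.24 and 21 ± 1.61). TLN1 and VCL overlapped in CS19 and not in CS16. FERMT2 itself was the fourth in WT, at 15.7 ± 3.01 RPKM, after PXN, and the third without WT-2, the only WT library with PXN above it. Without WT-2 the mean of TLN1 was 69.8 RPKM and that of PXN 9.7 RPKM.

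The departure of WT-2 ran along the G and C content of the members' exons. Against the mean of WT-1 and WT-3, WT-2 was at least 1.5-fold higher for 11 of the 31 members tested and at least 1.5-fold lower for 8. These ratios are of CPM plus 0.5, which brings low genes such as ITGB2 and ITGA9 nearer to 1, and with no pseudocount, which gives no ratio for ITGA4, ITGA8 and ITGAD, 12 were higher and 8 lower. PXN was 5.54-fold, ITGB4 3.42-fold, ITGB2 3.08-fold, TLN1 2.94-fold and ITGA3 2.32-fold higher in WT-2, while ITGAV stood at 0.477, ITGA6 at 0.566 and ITGA2 at 0.615 of the other libraries. The median exon G and C content was 57.4% for the 11 higher, 49.3% for the 12 in between and 41% for the 8 lower members. Across the 31 members, which share the same libraries, the rank correlation of the WT-2 ratio with G and C content was 0.72, and it was 0.66 across 19622 genes tested. Of the members called lower in the clones, ITGA3, ITGA5, ITGB2, ITGB4, ITGB5, TLN1 and PXN were among those higher in WT-2. ITGA2, ITGA6, ITGB1 and ITGB8 were among those lower in WT-2, and ITGA10, ITGB3, FERMT1 and PARVA were in between. Whether base composition had a part in the fold changes was not tested.

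**Figure D4:**
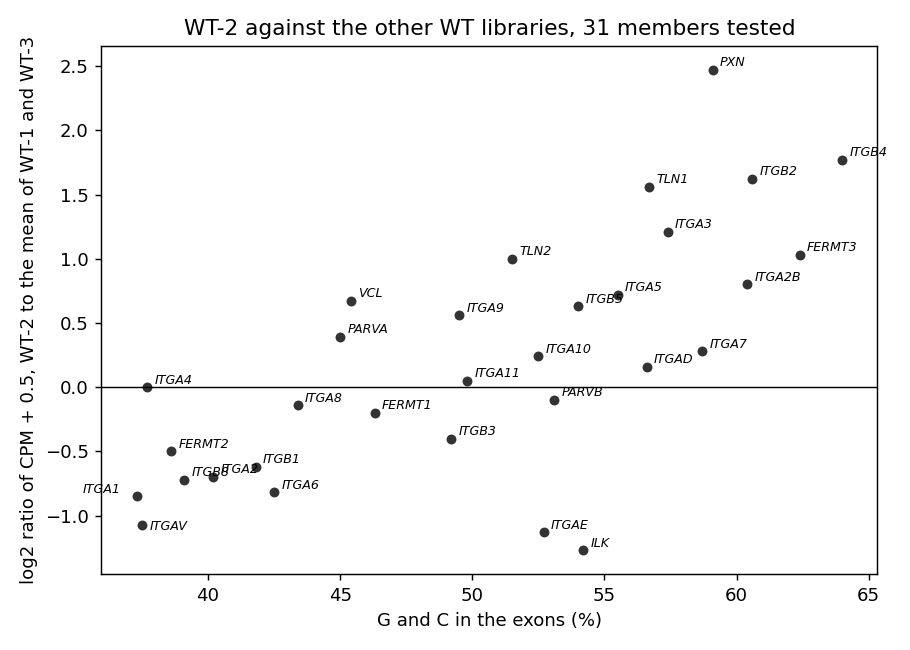
Log2 ratio of CPM plus 0.5 in WT-2 to the mean of WT-1 and WT-3 (vertical) against the percentage of G and C in the exons (horizontal) for the 31 members tested, 1 point each. PXN, ITGB4 and ITGB2 lie at the upper right and ITGAV and ITGA1 at the lower left, while ITGAE and ILK lie low at more than 50% G and C.

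Each clone was also set against WT by itself, and these comparisons share the WT libraries. For CS16, 20 of 30 members tested were called, 6 higher and 14 lower, against 27.1% of all genes (11.8% higher and 15.3% lower). For CS19, 22 of 31 were called, 7 higher and 15 lower, against 26.4% of all genes (12.0% higher and 14.4% lower). ITGA5 missed the cut-off in CS16 (log2 fold change -1.93, SE 0.25, adjusted p = 0.000489) and passed it in CS19 (-2.01, SE 0.25, adjusted p = 0.000407), and ITGAD was below the filter in the comparison of CS16. The 6 β subunits that were tested were called lower in each clone, with log2 fold changes of -8.90 to -2.95 in CS16 and -8.04 to -2.32 in CS19.

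The clones were then compared with each other, which tests how far 2 lines from single cells differed under the same genotype label. Of 29 members tested none was called at a log2 fold change of 2, against 1.13% of all genes. DESeq2 also called none, and 15 of the 29 had an unadjusted p under 0.05 with edgeR, against 6578 of all 17538 genes tested. An adjusted p under 0.05 with no limit on the change was reached by 12 members, 3 higher in CS16 (14.7% of all genes) and 9 lower in CS16 (12.7% of all genes). ITGA9 differed most, with 2.77 to 4.36 CPM in CS16 and 11.1 to 12.2 CPM in CS19 (log2 fold change of CS16 against CS19 -1.68, SE 0.15, adjusted p = 4.33e-06). ITGB8 (-1.31, SE 0.21, adjusted p = 0.000379), ITGA3 (-1.23, SE 0.13, adjusted p = 1.76e-05), ITGA7 (-1.23, SE 0.11, adjusted p = 2.5e-06) and ITGA6 (-1.09, SE 0.07, adjusted p = 2.67e-07) were also more than 2-fold lower in CS16. The other differences were smaller than 2-fold. ITGA2 (-0.50), ITGB5 (-0.32), TLN2 (-0.25) and PARVA (-0.65) were lower in CS16, and ITGA1 (0.68), ITGA8 (0.47) and PARVB (0.23) were higher in CS16. FERMT1, with 5, 4 and 15 counts in CS16 and 0 in CS19, was below the filter of this comparison. With all 3 groups in 1 fit, which shares the spread of WT, 5 members had an adjusted p under 0.05. They were ITGA6, ITGA7, ITGA9, ITGB8 and FERMT1 (adjusted p = 0.0176), while ITGA3 was no longer among them (adjusted p = 0.0882).

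The wider adhesion machinery was followed through 119 partner genes in 5 lists, of which 5 were under the filter in SNAI1-KO against WT. Of the rest 58 were called, 11 higher and 47 lower, against 26.9% of all genes, and the median log2 fold change was -1.41. Over all genes 12.6% were called higher and 14.3% lower, and the counts of each list below stand against the same shares. Among the 25 signalling partners tested, 3 were called higher and 4 lower (median -0.51), which at 28% called was near the share of all genes. ELMO1, an adaptor that activates RAC through DOCK proteins, was at 0.217 ± 0.16 CPM in WT (SD, n = 3) and 2.54 ± 0.427 in SNAI1-KO (n = 6), a log2 fold change of 3.54 (SE 0.41, adjusted p = 1.34e-05), or 4.27 without WT-2, on 2, 7 and 3 counts in WT. ARHGEF6, an exchange factor for RAC and CDC42, rose by 2.48 (SE 0.33, adjusted p = 4.16e-05). NEDD9, a docking protein of the CAS family, fell from 93.3 ± 2.26 to 2.18 ± 0.406 CPM (log2 fold change -5.42, SE 0.17, adjusted p = 8.24e-10). APBB1IP, which recruits talin for RAP1, had counts of 208 to 494 in WT and a single count over the 6 clone libraries, a ratio of 2366.5 with a 95% exact counting interval of 424 to 93569.

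Of 39 adaptors tested 3 were called higher and 17 lower (median -1.45). ENAH, an actin polymerase of the Ena/VASP family, went from 89 ± 27.1 to 499 ± 127 CPM (log2 fold change 2.49, SE 0.29, adjusted p = 1.4e-05). Its clones differed, with 614 ± 20 CPM in CS16 and 384 ± 18.5 CPM in CS19. CSRP1, a LIM protein of actin bundles, went from 171 ± 14.5 to 0.59 ± 0.162 CPM (-8.17, SE 0.20, adjusted p = 1.68e-10).

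Of 24 matrix ligands tested 3 were called higher and 14 lower (median -2.38). The laminin chains split. LAMB3, a chain of the epithelial laminin that ITGA3 and ITGA6 bind, went from 650 ± 194 to 0.179 ± 0.0618 CPM (log2 fold change -11.80, SE 0.27, adjusted p = 1.19e-10). LAMA4 (3.3 ± 0.828 to 89.1 ± 3.33 CPM, 4.76, SE 0.20, adjusted p = 3.18e-09) and LAMA1 (0.686 ± 0.455 to 62.6 ± 2.29 CPM, 6.48, SE 0.34, adjusted p = 1.98e-08), chains of vascular and embryonic basement membranes, were called higher. Of 11 ligands on cell surfaces 2 were called higher and 4 lower (median -0.75). The junctional molecules JAM3 (2.46 ± 0.399 to 81.2 ± 5.52 CPM, 5.04, SE 0.18, adjusted p = 1.39e-09) and JAM2 (0.272 ± 0.165 to 4.02 ± 0.786 CPM, 3.83, SE 0.38, adjusted p = 4.33e-06) were higher. ICAM1, a ligand of ITGB2 integrins, was lower (57.5 ± 23 to 0.268 ± 0.0848 CPM, -7.72, SE 0.30, adjusted p = 2.05e-09), as was VCAM1, a ligand of ITGA4 and ITGA9, with 105 to 245 counts in WT and 3 counts in all over the 6 clone libraries, a ratio of 435 with a 95% exact counting interval of 148 to 2116.

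Of 15 membrane proteins that associate with integrins none was called higher and 8 were called lower (median -2.17). SDC4, the syndecan of focal adhesions, went from 179 ± 22 to 12.1 ± 1.24 CPM (-3.89, SE 0.14, adjusted p = 1.28e-09), and PLAUR, the urokinase receptor and also 1 of the 10 MDA-MB-231 markers, from 79.2 ± 10.2 to 6.82 ± 0.535 CPM (-3.54, SE 0.14, adjusted p = 2.23e-09).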

How the data were processed

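The authors trimmed read pairs with Trimmomatic 0.36, aligned them with STAR 2.7.2b to GRCh38.p13 and deposited raw counts per gene from featureCounts (Subread 2.0.0), with a minimum mapping quality of 30, gencode 38 and, per the file headers, no strand setting, although the libraries were stranded, made from ribosomal RNA-depleted total RNA. From the counts of 60708 genes, edgeR 4.0.16 in R 4.3.3 (filterByExpr, TMM, quasi-likelihood test, Benjamini-Hochberg adjustment) gave the tests, with only the groups compared in each fit. CPM used TMM library sizes, and RPKM also the summed exon length. Pairs on exons of several genes were not counted, which lowers genes with antisense neighbours. The floor was 3 counts. Intervals and floors cover counting error only. Simulated counts with 200 changed genes per comparison were tested first, and 200 of 200 were called with 0 false calls in each. The share of false or missed calls in the real libraries was not tested. Symbols were matched for 99.6% of genes. The members and lists were chosen with earlier results of these data known. Text values per library were given for members called, for members that differed between clones, and for the 3 α and 3 β subunits of highest level per length, and partners by the 2 smallest adjusted p in each direction (some are not reported here). DESeq2 1.42.0, RLE scaling, other filters and cut-offs, the replicate block, 3 groups in 1 fit and leaving out each library were alternatives.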

Additional observations from a re-analysis of the deposited data

Results flagged for a closer look

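The clones differed in 12 members (adjusted p under 0.05 in the comparison of CS16 with CS19, edgeR). Of these 3 were higher and 9 lower in CS16, against 14.7% and 12.7% of all genes. The log2 fold changes of CS16 against CS19 were 0.68 for ITGA1, -0.50 for ITGA2, -1.23 for ITGA3, -1.09 for ITGA6, -1.23 for ITGA7, 0.47 for ITGA8, -1.68 for ITGA9, -0.32 for ITGB5, -1.31 for ITGB8, -0.25 for TLN2, -0.65 for PARVA and 0.23 for PARVB. ITGA3, ITGA6 and ITGB8, which were called lower than in WT, were lower in CS16 than in CS19, and ITGA7 and ITGA9, which were called higher, were higher in CS19.

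A single library stood apart within the 6 SNAI1-KO libraries for 1 of the 31 members checked, TLN1, which was at 197 CPM in CS19-3 against 213 to 220 CPM in the others. Chance alone gives about 1 such library in 20 groups.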

How the results depend on the processing

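Of the 22 members called in SNAI1-KO against WT, 20 kept their call under every alternative that gave a value, and the exceptions were ITGA5 and TLN1. The count was 20 to 22 when each library was left out in turn, 21 with the replicate block, 21 with DESeq2, which gave no adjusted p for PXN, and 23 without a filter. Leaving out each library gave 20 to 22 called members in CS16 against WT and 20 to 22 in CS19 against WT. ITGA9 in CS16 missed the cut-off without WT-3 (log2 fold change 1.97), and ITGAE, not called, had log2 fold changes of -0.54 to 0.07 when each library was left out, above 0 only without WT-3. Some fold changes, taken out of log2, moved by over 1.5 times when a library was left out (log2 values in brackets). Leaving out WT-2 did so for ITGA2B (from 2.62 to 3.35), ITGAD (fitted value 4.96 to 7.04, with WT counts of 0 left), ITGB2, ITGB4, TLN1 and PXN. Leaving out WT-3 did so for ITGA8 (8.73 to 11.60), whose other WT counts are 0, and leaving out CS16-3 for FERMT1 (-6.98 to -8.04). In CS16, leaving out CS16-2 moved ITGB4 from -8.90 to -9.73.

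In CS16 against CS19 the count of members called, 0, became 12 with no limit on the fold change, 5 at a log2 fold change of 1, and 1 (FERMT1) without a filter and 1 (FERMT1) with 3 groups in 1 fit. Over all 17538 genes tested, 4814 were called with no limit on the fold change and 833 at a log2 fold change of 1. The count of members called stayed at 0 when each library was left out. ITGB5, TLN2 and PARVB lost an adjusted p under 0.05 in some of these. The 58 partners called became 93 with no limit on the fold change and were 56 to 60 when each library was left out.

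Replicate numbers do not pair the samples by any label. Same-numbered libraries of different groups correlated by -0.206 to 0.19 in their deviations, over 0.1 in 1 of 9 pairs, so they share only a number. With the replicate block the counts were 21 in SNAI1-KO, 20 in CS16 and 21 in CS19 against WT, 0 between the clones and 58 for the partners. With the longest transcript in place of summed exon length, ITGA5 came before ITGA6 in CS16, ITGB8 was the third β subunit in CS16, and VCL came before TLN1 in CS19. Leaving out WT-2 from the order in WT and the pseudocount from the WT-2 ratios were chosen after seeing the data. At this depth 3 counts were 0.0982 to 0.171 CPM, which limits what could be said of the 5 members under the filter.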
